A study of Mus musculus with 6 samples.

Results

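The genes described here are the 4 inhibitors of DNA binding *Id1*, *Id2*, *Id3* and *Id4*, the ligand *Bmp4* and the inhibitory Smads *Smad6* and *Smad7*. They are 7 of the 16557 genes listed in the count tables of 6 murine rhabdoid tumors. They were chosen by their measured levels in tumor cells and immune cells of these same tumors, so their difference between those cells is given as a description, with no test. A gene that a table does not list was counted as 0. *Id4* was listed for 1 tumor, *Smad6* for 5 tumors and the other members for all 6.

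Single cells were sequenced from 3 MYC spinal tumors (Rosini1172, Rosini1177 and Rosini1232) and 3 extracranial rhabdoid tumors, or eRT (Rosini1148, Soxertini568 and Soxertini593), 1 tumor per mouse, which the plots name by number alone. All mice carried floxed alleles of *Smarcb1*, a gene of the SWI/SNF complex that remodels chromatin, on a C57BL/6 background. A tamoxifen-inducible Cre deleted the gene after a single dose of 50 mg/kg given to the pregnant mother early in gestation. The MYC spinal tumors arose at an age of 19, 26 and 17 weeks in mice labelled Rosa26-cre, which carried Rosa26-creERT2, with Cre under a promoter active in most cell types. The eRT Rosini1148, at a gland, arose in the same strain at 17 weeks. The eRT Soxertini568 (jaw, 29 weeks) and Soxertini593 (shoulder, 22 weeks) came from mice labelled Sox2-cre, which carried Sox2-creERT2, with Cre under the *Sox2* promoter. Which cells lost *Smarcb1* also depends on where tamoxifen activated Cre. Subtype and strain can therefore not be told apart in full. No tumor-free tissue was analysed here.

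Bone morphogenetic proteins (BMPs) are secreted ligands that bind paired receptors on the cell surface. The receptors phosphorylate Smad1, Smad5 and Smad9, which enter the nucleus with Smad4 and raise the transcription of target genes. *Id1* to *Id4* are among the best known of these targets. Their products hold a helix-loop-helix domain but no DNA-binding region, and they pair with E proteins (*Tcf3*, *Tcf4*, *Tcf12*) and keep them off DNA, which holds back differentiation in many lineages. *Smad6* and *Smad7* are induced by the same signals and block the receptors in return. *Id2* is also known for its part in the formation of natural killer (NK) cells and dendritic cells, where it does not depend on BMP alone.

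Tumor cells were defined as clusters in which *Smarcb1* was nearly absent, and 2767 of the 22163 cells kept were tumor cells. They numbered 112, 13 and 1746 in MYC spinal Rosini1172, Rosini1177 and Rosini1232 and 68, 201 and 627 in eRT Rosini1148, Soxertini568 and Soxertini593, with a median of 2049 to 6142 unique molecular identifiers (UMIs, each 1 captured transcript) per cell. *Smarcb1* stood at 0 to 6.41 CPM (the usual scaling of a gene's UMIs to all UMIs of the same cells) in them, against 26.5 to 58.5 CPM in the 17170 immune-like cells, which had medians of 924 to 4686 UMIs. The 0 is that of Rosini1177, where its 13 cells had only 1.13 *Smarcb1* UMIs expected, so a loss cannot be read from it. The 328 cells of that tumor that were left out held 11 *Smarcb1* UMIs against 7.70 expected. The 90 markers of immune cells summed to 1851 to 3434 CPM in the tumor cells of 5 tumors, but to 19120 CPM in the 13 tumor cells of MYC spinal Rosini1177, so values of that tumor stand apart and the comparison of subtypes in tumor cells is given with and without it. Tumor cells also held fibroblast markers at 584.6 to 2719 CPM, against 1.79 to 24.2 CPM in immune-like cells. Cell names carried no barcode, so barcodes shared between libraries could not be counted. A further 1816 cells took no name and 328 cells of Rosini1177 were left out.

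*Bmp4* encodes the only ligand among the members. On GRCm38 it lies on chromosome 14 from 46383520 to 46390669, on the minus strand. In tumor cells it stood at 220 CPM (95% interval 184 to 262, 128 UMIs) in MYC spinal Rosini1172 and at 156 CPM (122 to 196, 73 UMIs) in eRT Rosini1148. It stood at 1.70 CPM in MYC spinal Rosini1232 (15 UMIs), 8.06 CPM in eRT Soxertini568 (5 UMIs) and 6.29 CPM in eRT Soxertini593 (19 UMIs). 1 tumor of each subtype was thus high, and the other 3 tumors with UMIs stood at 8.06 CPM or lower. No UMI was found in MYC spinal Rosini1177, where 3 counts would be 70.3 CPM, so a level like that of Rosini1232 could not have been seen. Immune-like cells held 10 *Bmp4* UMIs in all, at 0 to 0.566 CPM. In Rosini1172 the level of tumor cells was 233 times the limit of detection in immune-like cells, taken as 3 counts in that tumor. This ratio leaves out the counting error of the tumor cells. The share of tumor cells with a *Bmp4* UMI was 41.1% in Rosini1172 (31.9% to 50.8%) and 41.2% in Rosini1148 (29.4% to 53.8%), while NK cell-like cells, which should lack it, held none in any tumor (0 of 186 in Rosini1172, which allows a share of up to 1.61%, at a median depth of 1556 UMIs against 5274 in the tumor cells). Intervals cover counting error only.

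*Id3* was the member with the highest level in tumor cells. It lies on chromosome 4 from 136143497 to 136145755, on the plus strand. Among the MYC spinal tumors, its level in tumor cells was 2151 CPM in Rosini1172 (2034 to 2274), 820 CPM in Rosini1177 (571 to 1141, from 35 UMIs) and 1239 CPM in Rosini1232 (1215 to 1262). Among eRT, the level was 1765 CPM in Rosini1148 (1647 to 1890), 259 CPM in Soxertini568 (221 to 303) and 1467 CPM in Soxertini593 (1425 to 1511). The subtypes overlapped, and eRT Soxertini568 was lowest of all. Far less was found in immune-like cells, with 18.9, 12.2 and 28.4 CPM in the MYC spinal tumors and 8.49, 90.3 and 13.5 CPM in eRT. The level in tumor cells was 43.6 to 208 times that in immune-like cells in 5 tumors, Rosini1177 among them, and 2.87 times (2.35 to 3.51) in Soxertini568. An *Id3* UMI was found in 16.9% of tumor cells in Soxertini568 and in 69.2% to 91.1% in the others. Immune-like cells held one in 1.24% to 8.60% and NK cell-like cells, taken as the background from free RNA, in 0% to 8.0%, at median depths of 585 to 3274 UMIs. The exact interval of the background share covered the share of all immune-like cells in each of the 6 tumors. These intervals were wide, from 25 to 186 NK cell-like cells in a tumor. They thus cannot tell whether *Id3* of immune-like cells is free RNA. Single kinds, such as B cell-like cells of the MYC spinal tumors, held more, as given below. With every cell thinned to 1000 UMIs, the share in tumor cells was 64.6%, 41.7% and 54.3% in MYC spinal Rosini1172, Rosini1177 and Rosini1232 and 58.8%, 11.1% and 66.7% in eRT Rosini1148, Soxertini568 and Soxertini593.

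*Id1* lies on chromosome 2 from 152736251 to 152737410, on the plus strand. In tumor cells it stood at 75.7 CPM (55.0 to 102) in MYC spinal Rosini1172, 181 CPM (173 to 190) in Rosini1232 and 197 CPM (159 to 241) in eRT Rosini1148. It was near absent in eRT Soxertini568 (1.61 CPM, 1 UMI) and eRT Soxertini593 (2.65 CPM, 8 UMIs), and no UMI was found in MYC spinal Rosini1177, where 3 counts would be 70.3 CPM. Thus 3 tumors were high in *Id1*, while Soxertini568 and Soxertini593, with *Id3* at 259 and 1467 CPM, were not. The tumors were not ordered alike by *Id1* and *Bmp4*, since Rosini1232 held *Id1* at 181 CPM with *Bmp4* at 1.70 CPM. The share of tumor cells with an *Id1* UMI was 20.5%, 37.5% and 41.2% in Rosini1172, Rosini1232 and Rosini1148, against 0 of 186, 3.08% of 65 and 0 of 54 NK cell-like cells. In Soxertini593 the share of 1.12% (0.450% to 2.29%) overlapped that of immune-like cells (0.371%, 0.192% to 0.646%), so a difference was not detectable at this depth. The ratio of tumor to immune-like cells ran from 26.7 in Rosini1232 through 60.2 in Rosini1172 to 116 in Rosini1148. It was 0.0863 in Soxertini568 (0.00215 to 0.501, from 1 UMI in tumor cells).

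*Id2* was found in both kinds of cells. It lies on chromosome 12 from 25093799 to 25097140, on the minus strand. In tumor cells it stood at 249, 46.9 (2 UMIs) and 297 CPM in MYC spinal Rosini1172, Rosini1177 and Rosini1232 and at 395, 50.0 and 21.2 CPM in eRT Rosini1148, Soxertini568 and Soxertini593. Immune-like cells held 862, 148 and 210 CPM in the MYC spinal tumors and 219, 1855 and 187 CPM in eRT. Tumor cells were above immune-like cells in Rosini1232 (ratio 1.42, 1.34 to 1.49) and Rosini1148 (1.81, 1.54 to 2.1), and below them in Rosini1172 (0.289, 0.243 to 0.342), Soxertini568 (0.0269, 0.0183 to 0.0383) and Soxertini593 (0.113, 0.0866 to 0.145). In Rosini1177 the ratio of 0.318 (0.0384 to 1.15) did not go beyond counting error. Immune-like cells held 14983 *Id2* UMIs in all, against 930 of *Id3* and 269 of *Id1*. In Soxertini568 an *Id2* UMI was found in 7.46% of tumor cells (median 2049 UMIs), against 8.0% of 25 B cell-like cells (0.984% to 26.0%, median 1577 UMIs), a lineage known for low *Id2*. In Rosini1172 the shares were 32.1% (median 5274 UMIs) and 28.6% of 28 B cell-like cells (median 2083 UMIs). The tumor-cell share of *Id2* was thus not above this background in Soxertini568, and not beyond counting error of it in Rosini1172 (23.6% to 41.6% against 13.2% to 48.7%).

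*Id4* was found at 13 UMIs in the tumor cells of MYC spinal Rosini1232 (1.47 CPM, 0.784 to 2.52), 12 of them in 1 cluster, and at 1 UMI in its immune-like cells. It lies on chromosome 13 from 48261228 to 48266026. The other 5 tables do not list it. A gene was listed there only if found in at least 3 cells, so lower levels cannot be told from absence.

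**Figure D1:**
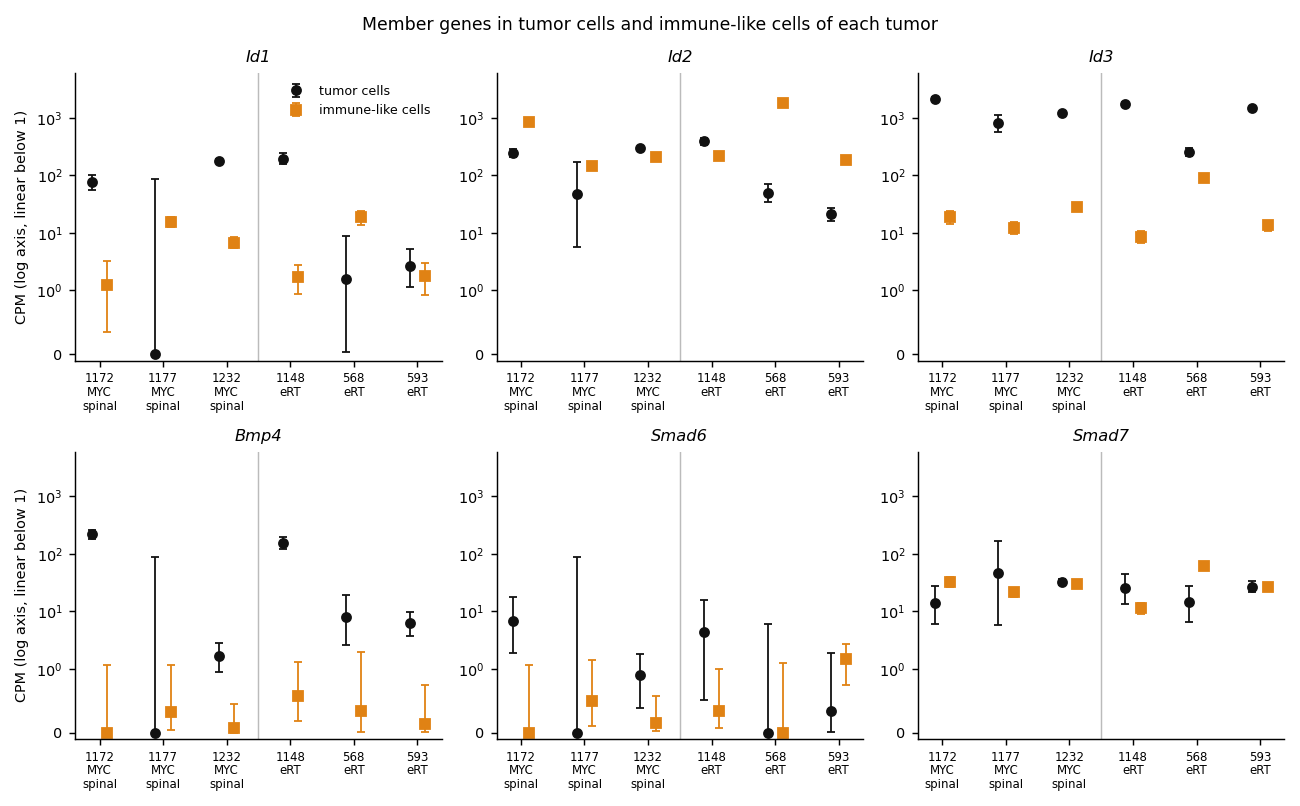
Level of 6 members in CPM (log axis, linear below 1) in tumor cells (black circles) and immune-like cells (orange squares) of each of the 6 tumors, with 95% counting intervals. *Id3* was higher in tumor cells of all 6 tumors, *Id2* in Rosini1232 and Rosini1148 only, and *Bmp4* was above 100 CPM only in Rosini1172 and Rosini1148.

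*Smad6* and *Smad7* are the feedback inhibitors among the members. *Smad6* (chromosome 9, 63953076 to 64022059) was rare everywhere, with 15 UMIs in all tumor cells and 19 in all immune-like cells. Its levels in tumor cells were 6.88, 0 and 0.907 CPM in MYC spinal Rosini1172, Rosini1177 and Rosini1232 and 4.27, 0 and 0.331 CPM in eRT Rosini1148, Soxertini568 and Soxertini593. The 3 tumors high in *Id1* held the 3 highest values, on 4, 8 and 2 UMIs, but this order is not firm. In Rosini1177 and Soxertini568, 3 counts would be 70.3 and 4.83 CPM. Their values of 0 can thus not be ranked below that of Rosini1232. The value of Soxertini593 rested on 1 UMI. In Rosini1172 the level of tumor cells was 7.29 times the limit of 3 counts in immune-like cells, where no UMI was found. This ratio leaves out the counting error of the 4 UMIs in tumor cells. *Smad7* stood at 13.8, 46.9 (2 UMIs) and 32.2 CPM in the tumor cells of MYC spinal tumors and at 25.6, 14.5 and 26.8 CPM in eRT tumor cells. Levels in immune-like cells were 32.4, 21.5 and 29.3 CPM for the MYC spinal tumors and 11.2, 61.9 and 25.9 CPM for eRT. The ranges of tumor and immune-like cells overlapped, and the ratio of tumor to immune-like cells went both ways. It was 2.29 in Rosini1148 (1.14 to 4.18), 0.425 in Rosini1172 (0.179 to 0.869) and 0.234 in Soxertini568 (0.105 to 0.455). In Rosini1232 (1.10, 0.937 to 1.28), Soxertini593 (1.03, 0.787 to 1.35) and Rosini1177 (2.18, 0.262 to 8.05) it did not go beyond counting error.

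Among cell kinds the *Id* genes had different orders. By the median over tumors with at least 10 cells of a kind, *Id3* was led by fibroblast-like cells at 3990 CPM, from 74 cells of Soxertini593 alone. It stood at 1353 CPM in tumor cells. Among immune kinds it stood at 99.0 CPM in B cell-like cells and at 35.9 CPM or less in the other 10. B cell-like cells held 114, 84.5 and 412 CPM of *Id3* in MYC spinal Rosini1172, Rosini1177 and Rosini1232 (28, 543 and 10 cells) and 47.7 CPM (2 UMIs) in eRT Soxertini568. They were the highest immune kind in all 3 MYC spinal tumors. *Id2* was led by mature dendritic cell-like cells (932 to 1943 CPM in 4 tumors), NK cell-like cells (652 to 1597 CPM in 6 tumors) and T cell-like cells (410.5 to 1068 CPM in 6 tumors). Tumor cells had a median *Id2* level of 150 CPM, over a range of 21.2 to 395 CPM (249 CPM without Rosini1177), below the medians of 7 of the 11 immune kinds. The ranges of neighbors in these orders overlapped, with few exceptions. One was *Id3* between fibroblast-like and tumor cells. The others were *Id3* and *Id2* between B cell-like and plasmacytoid dendritic cell-like cells. Fibroblast-like and plasmacytoid dendritic cell-like cells were each measured in 1 tumor.

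Most *Id1* UMIs of immune cells lay in myeloid kinds, though not every myeloid kind was high in CPM. Neutrophil-like cells held 18.9, 50.9 and 73.3 CPM in Rosini1177, Rosini1232 and Soxertini568 (29, 18 and 17 UMIs), and monocyte-like cells 0 to 31.6 CPM over 6 tumors. Of the 269 *Id1* UMIs of immune-like cells, 92 were in monocyte-like, 64 in neutrophil-like and 43 in macrophage-like cells. These counts also follow the size of each kind. Macrophage-like cells stood at 0 to 12.9 CPM, against 1.26 to 18.7 CPM in all immune-like cells. In Rosini1232 osteoclast-like cells were the lowest immune kind (3.73 CPM) and 10 B cell-like cells the highest (86.8 CPM). NK cell-like and T cell-like cells held 2 and 4 UMIs in all. The myeloid cells of eRT Soxertini568 stood apart from those of the other tumors. Their *Id2* level was 3479 CPM in monocyte-like, 1336 CPM in neutrophil-like and 1162 CPM in macrophage-like cells, while the other tumors held at most 779, 255 and 477 CPM in these kinds. *Id3* in monocyte-like cells was 240 CPM in Soxertini568 (213 UMIs) and 4.86 to 38.8 CPM in the other 5 tumors. This raised the immune-like level of Soxertini568 and lowered its ratio of tumor to immune-like cells. *Smad7*, which limits TGF-beta signals in lymphocytes too, was led by T cell-like cells among the kinds found in all tumors, at 19.95 to 179 CPM.

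**Figure D2:**
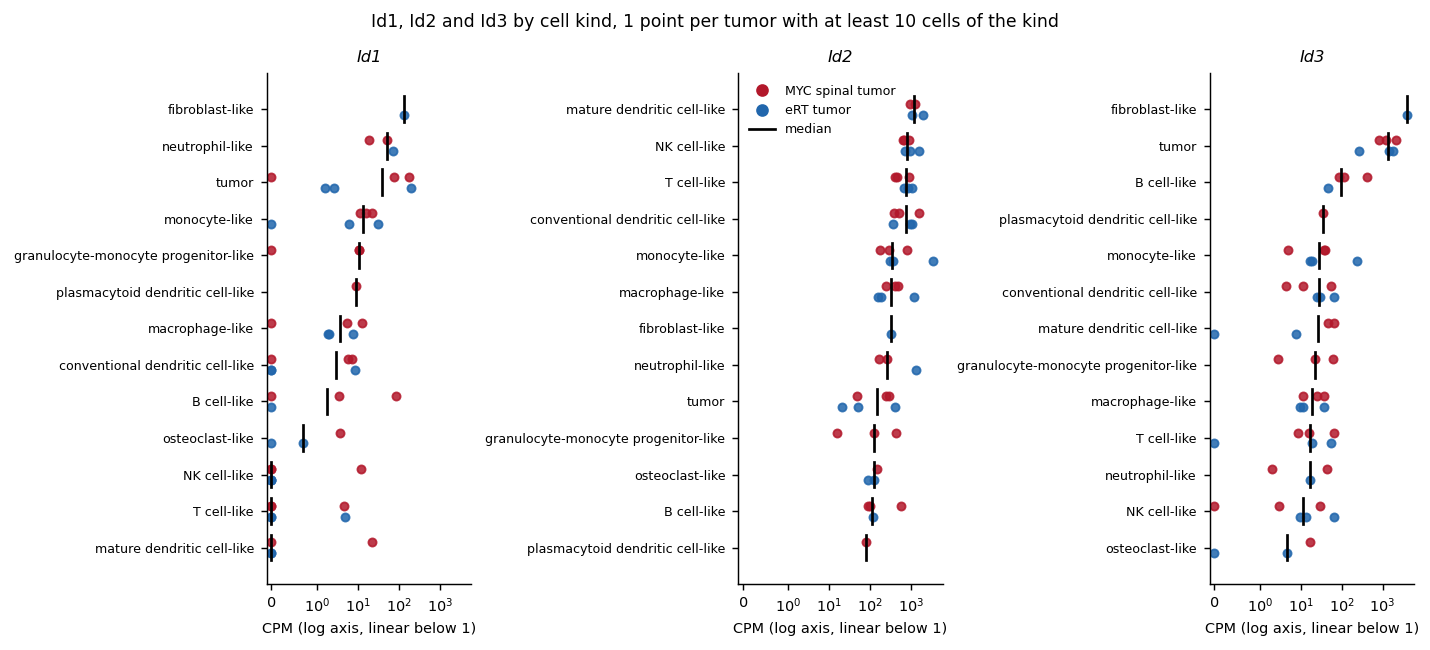
CPM of *Id1*, *Id2* and *Id3* (log axis, linear below 1) by cell kind, 1 point per tumor with at least 10 cells of the kind, red for MYC spinal and blue for eRT, with the median as a black line. Tumor cells sit at a median of 1353 CPM for *Id3*, above the median of every immune kind but below fibroblast-like cells (3990 CPM, 1 tumor). For *Id2* they sit at 150 CPM, below NK cell-like, T cell-like, and conventional and mature dendritic cell-like cells.

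Within a tumor the members varied between clusters of tumor cells, which are numbered separately in each subtype. These clusters were found without the members, the pathway genes and *Smarcb1*, and their differences are given with no test. In MYC spinal Rosini1232, cluster 2 (782 cells, led by *Mfap4*, *Dlk1* and *H19*) held *Id3* at 2034 CPM, *Id2* at 647 CPM and *Id1* at 351 CPM. Cluster 7 (690 cells, led by *Il23a* and *S100a7a*) held them at 939, 118 and 103 CPM. Clusters 21 and 23 (179 and 95 cells, led by *Klk8* and *Bex1*) were low in all of them, with *Id3* at 35.1 CPM (19.2 to 58.8) and 208 CPM (175 to 246). The clusters low in *Id3* were not all shallow, since the median depth was 1925 UMIs in cluster 21 but 6504 UMIs in cluster 23, against 3678 in cluster 2. In eRT Rosini1148, cluster 19 (37 cells, led by *Prg4*, *Cldn4* and *Epcam*) held *Bmp4* at 311 CPM, *Id1* at 377 CPM, *Id2* at 692 CPM and *Id3* at 2234 CPM. By its markers *Epcam*, *Krt8* and *Krt18* cluster 19 took the name epithelial cell, while clusters 2 and 11 of eRT took the name fibroblast. Cluster 19 held 71 of the 73 *Bmp4*, 86 of the 92 *Id1* and 158 of the 185 *Id2* UMIs of tumor cells of Rosini1148. The high levels of these genes in that tumor thus rested on these 37 cells. The 19 cells of cluster 2 in Rosini1148 held *Id3* at 1523 CPM but *Id1* at 21.2 CPM and *Bmp4* at 5.29 CPM.

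In MYC spinal Rosini1172, *Bmp4* was spread over clusters 2 and 7, at 240 CPM (199 to 288) and 138 CPM (63.0 to 261). In eRT Soxertini568, *Id3* stood at 450 CPM in cluster 2 (54 cells, median 5891 UMIs) and at 39.7 CPM (19.8 to 71.1) in cluster 11 (145 cells, median 1577 UMIs, led by *Ctla2a*, *Npy* and *Gap43*). Both clusters lay below the whole-tumor level of the other 5 tumors (820 to 2151 CPM). Single clusters of other tumors were also low, such as clusters 21 and 23 of Rosini1232 at 35.1 and 208 CPM. In eRT Soxertini593, *Id3* stood at 1591 CPM in cluster 2 (559 cells) and 585 CPM in cluster 11 (67 cells), while *Id1* and *Id2* stayed at or below 5.34 and 26.7 CPM in both. A cell with an *Id3* UMI more often held an *Id1* UMI as well. With cells of Rosini1232 thinned to 1000 UMIs, *Id1* was found in 24.5% of 948 cells with *Id3* and in 5.01% of 798 cells without, and *Id2* in 34.0% and 9.90%. In Soxertini593 the shares of *Id1* were 0.239% and 0.478%. These shares are counts of cells, not of tumors, and were not split by cluster.

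**Figure D3:**
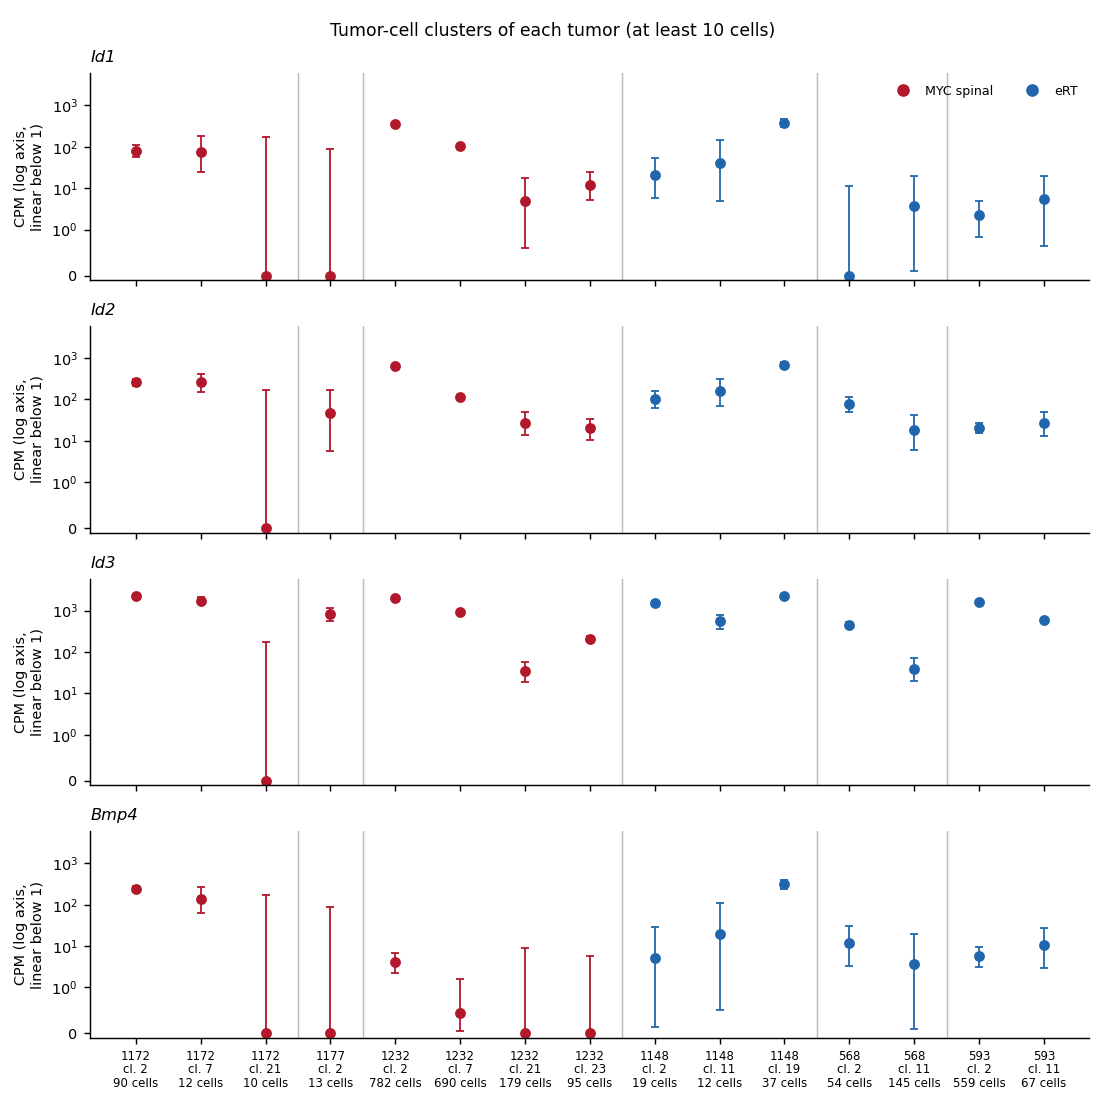
CPM of *Id1*, *Id2*, *Id3* and *Bmp4* (log axis, linear below 1) in each cluster of tumor cells with at least 10 cells, by tumor, with 95% counting intervals, red for MYC spinal and blue for eRT. *Id3* runs from 2034 to 35.1 CPM among the 4 clusters of Rosini1232, and *Bmp4* stands at 311 CPM in cluster 19 of Rosini1148.

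Tumor cells of eRT were compared with those of MYC spinal tumors. No member was called between the subtypes, and the spread between tumors was wide. For *Id3* the MYC spinal mean was 1403 ± 681 CPM (SD, n = 3) and the eRT mean 1164 ± 797 CPM (n = 3). Without Rosini1177 the MYC spinal means were 1695 CPM for *Id3*, 128.5 CPM for *Id1*, 273 CPM for *Id2* and 111 CPM for *Bmp4*. With it, the same pair of means was 85.7 ± 91.1 and 66.9 ± 112 CPM for *Id1*, 198 ± 133 and 156 ± 208 CPM for *Id2*, and 73.9 ± 127 and 56.8 ± 85.9 CPM for *Bmp4*. The SD was close to or above the mean for *Id1* and *Bmp4* in both groups. By the quasi-likelihood test of edgeR, with p-values adjusted over 5726 genes by Benjamini-Hochberg, the log2 fold change was −0.05 (SE 0.64) for *Id3*, −0.65 (SE 1.49) for *Id1*, −0.36 (SE 0.97) for *Id2* and 0.02 (SE 0.51) for *Smad7*, each at an adjusted p of 0.9996. *Id4*, *Bmp4* and *Smad6* did not pass the filter on low counts there. The 95% intervals of the difference ran from −1.3 to 1.2 for *Id3* and from −3.57 to 2.26 for *Id1*, so differences of these sizes could not have been told from none. This fit called 0% of genes, with 193 genes at an unadjusted p under 0.05, and DESeq2 called 18 genes, none of them a member. Without TMM scaling the median of all genes shifted from 0.06 to −0.27 and *Smad7* went to −0.24. Without Rosini1177 the log2 fold change was −0.30 for *Id3*, −1.02 for *Id1* and −0.72 for *Id2*.

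In immune-like cells, the same contrast also gave no call among the members. The log2 fold change of eRT over MYC spinal was 1.16 (SE 1.04) for *Id2*, 1.01 (SE 0.93) for *Id3*, −0.21 (SE 1.24) for *Id1* and 0.36 (SE 0.64) for *Smad7*, each at an adjusted p of 0.999 by edgeR. The fit called 0% of 10788 genes, with 245 at an unadjusted p under 0.05, and DESeq2 called 14. The higher *Id2* and *Id3* levels of eRT rested on Soxertini568, as without it the log2 fold changes were −0.80 and −0.75. The makeup of the immune-like cells differed between tumors (T cell-like cells were 59.0% of all cells in Rosini1172, monocyte-like cells 35.7% in Rosini1177), and its part in these values was not tested. For the change from immune-like to tumor cells, the interaction with subtype called 0% of 12139 genes, with 329 at an unadjusted p under 0.05 by edgeR and 3 called by DESeq2. Its 95% intervals were wide, from −6.63 to 2.16 for *Id1*, −4.24 to 1.2 for *Id2* and −2.64 to 2.49 for *Id3*. Differences of these sizes could not have been told from none.

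The study also compared dividing with other tumor cells. *Id3*, *Id2* and *Id1* were lower in mitotic tumor cells, defined as cells with a UMI of at least 3 of 10 mitotic markers such as *Mki67* and *Top2a*. *Id3* stood at 1333 against 2281 CPM in mitotic and other cells of MYC spinal Rosini1172 (12 and 100 cells), 861 against 1385 CPM in Rosini1232 (308 and 1438 cells) and 660 against 1584 CPM in eRT Soxertini593 (49 and 578 cells), so it was lower in each of these 3 tumors. The log2 fold change was −0.99 (SE 0.21, adjusted p = 1.25e-03, edgeR with the tumor as a block). *Id2* fell by 1.36 on the log2 scale (SE 0.28, adjusted p = 8.36e-04) and *Id1* by 0.83 (SE 0.24, adjusted p = 0.0283). In this comparison edgeR called 8.17% of 9519 genes, 4.53% higher and 3.65% lower, and 3 of the 5 members tested were among the lower ones. DESeq2 called 212 genes higher and 50 lower where edgeR called 431 and 347, and of the members it called *Id3* alone (adjusted p = 0.825 for *Id1* and 0.853 for *Id2*).

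*Id1* and *Id2* rested on 1 tumor. *Id2* stood at 90.9 against 377 CPM in mitotic and other cells of Rosini1232 and at 201 against 257 CPM in Rosini1172, but at 31.6 against 19.7 CPM in Soxertini593. *Id1* stood at 104 against 211 CPM in Rosini1232, and was nearly equal in Rosini1172 (75.4 against 75.7 CPM) and Soxertini593 (2.63 against 2.65 CPM). Without Rosini1232 the log2 fold changes were −0.07 for *Id2* (adjusted p = 0.965) and −0.14 for *Id1* (adjusted p = 0.958). That of *Id3* was −1.17 (adjusted p = 9.97e-05), but without Soxertini593 it was −0.79 (adjusted p = 0.182). The calls of *Id1* and *Id3* were also lost when 2 markers sufficed for the mitotic class, at log2 fold changes of −0.39 (adjusted p = 0.304) and −0.39 (adjusted p = 0.248). In the 3 tumors with fewer than 10 mitotic cells, which were outside the test, *Id3* was not lower. It stood at 1239 against 684 CPM in Rosini1177 (13 and 22 UMIs), 1880 against 1745 CPM in Rosini1148 and 312 against 255 CPM in Soxertini568. In Rosini1148, the only one of them high in *Id1* and *Id2*, *Id1* stood at 131 against 208 CPM and *Id2* at 277 against 416 CPM, from 9 and 19 UMIs in mitotic cells.

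Mitotic cells were deeper than the others, with medians of 6448, 7389 and 7079 UMIs against 5222, 3842 and 4264 in Rosini1172, Rosini1232 and Soxertini593. They were also spread unevenly over the clusters. Mitotic cells made up 3.58% of cluster 2 of Rosini1232, where *Id3* was highest, and 35.5% of cluster 7. Within these clusters the log2 difference of *Id3* between mitotic and other cells, after adding 10 CPM, was −0.37 and −0.16, that of *Id2* −0.96 and −0.85, and that of *Id1* −0.40 and −0.08. In clusters 2 and 11 of Soxertini593 the difference was −0.86 and −0.08 for *Id3*, but 0.40 and 1.04 for *Id2*. *Smad7* (log2 fold change 0.01, SE 0.28, adjusted p = 0.990) and *Bmp4* (−0.49, SE 0.39, adjusted p = 0.541) were not called. Of the 45 genes of the pathway lists that were tested here, 0 were called higher and 3 lower. These were the negative regulator *Tob1* (−0.97, SE 0.25, adjusted p = 8.28e-03), the E protein *Tcf4* (−0.69, SE 0.22, adjusted p = 0.0413), and *Gdf10* (−3.93, SE 0.94, adjusted p = 5.14e-03), which had UMIs in Rosini1172 alone among the tumors tested (1 mitotic and 90 others). The call of *Tcf4* rested on Rosini1232 (102 against 204 CPM), and was lost without it (−0.25, adjusted p = 0.842), without Soxertini593 (adjusted p = 0.0789) and with DESeq2 (adjusted p = 0.723). That of *Tob1* was also lost without Rosini1232 (adjusted p = 0.276), without Soxertini593 (adjusted p = 0.0854) and with DESeq2 (adjusted p = 0.237). The other E proteins changed by −0.11 (*Tcf3*, SE 0.23, adjusted p = 0.860) and −0.43 (*Tcf12*, SE 0.23, adjusted p = 0.303).

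**Figure D4:**
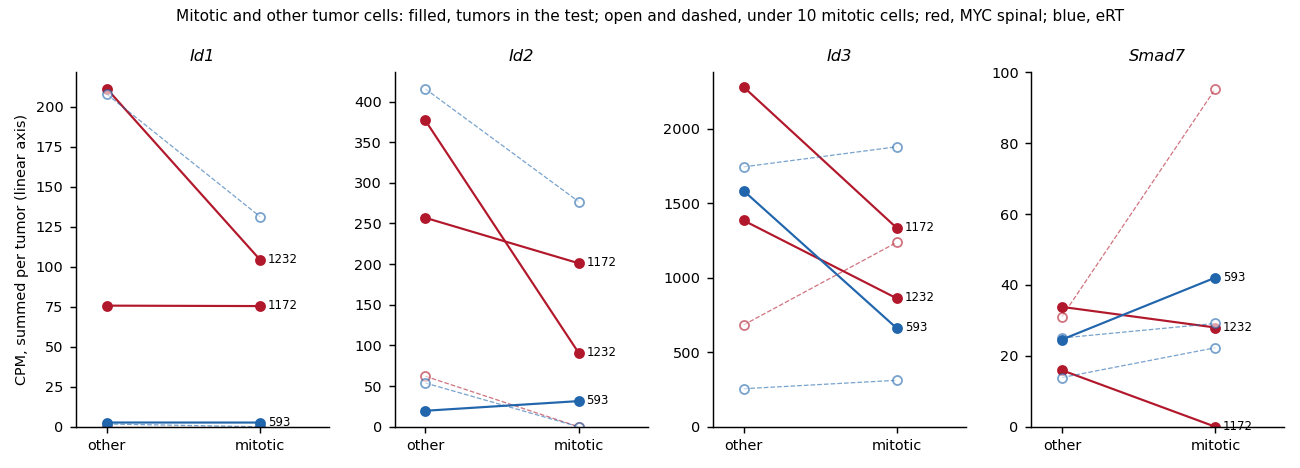
CPM of *Id1*, *Id2*, *Id3* and *Smad7* (linear axis from 0) summed over other and mitotic tumor cells of each tumor, joined by a line, red for MYC spinal and blue for eRT, filled for the 3 tumors in the test and open for those with fewer than 10 mitotic cells. *Id3* falls in Rosini1172, Rosini1232 and Soxertini593, while *Id2* rises from 19.7 to 31.6 CPM in Soxertini593.

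The promoters of *Id3* and *Id2* are shown because these genes were called lower in mitotic cells, and BMP-responsive promoters are known to carry Smad-binding motifs. The sequences are 250 bases before to 20 bases after the RefSeq start on GRCm38.p6, for *Id3* at chr4:136143572-136143841 on the plus strand and for *Id2* at chr12:25096073-25096342 on the minus strand, with the GC-rich Smad element in capitals.
Id3: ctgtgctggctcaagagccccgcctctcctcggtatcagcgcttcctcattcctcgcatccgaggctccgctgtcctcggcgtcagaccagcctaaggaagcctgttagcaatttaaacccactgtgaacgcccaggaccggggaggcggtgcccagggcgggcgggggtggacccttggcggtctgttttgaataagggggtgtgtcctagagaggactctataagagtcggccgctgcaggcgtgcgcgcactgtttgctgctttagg
Id2: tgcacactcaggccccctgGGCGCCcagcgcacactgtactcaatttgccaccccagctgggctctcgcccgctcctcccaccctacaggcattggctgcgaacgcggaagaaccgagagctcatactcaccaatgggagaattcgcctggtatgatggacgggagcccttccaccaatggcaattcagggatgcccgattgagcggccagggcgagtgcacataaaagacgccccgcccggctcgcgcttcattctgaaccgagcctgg
Both strands were searched for the GC-rich Smad element GGCGCC and the palindromic element GTCTAGAC, and no match of one overlapped one of the other in these promoters. *Id2* held the first 231 bases before its start and *Id4* 148 bases before, and *Id3* held neither. *Smad6* held the second 4 bases before its start. Of the 32851 promoters searched, 11.9% held GGCGCC and 0.213% GTCTAGAC. RefSeq promoters of 5 of the 7 members were searched. *Id1*, also called lower in mitotic cells, had no entry among the promoters, and the sequence of *Smad7* was not used.

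The other genes of the pathway were described by 8 lists of 85 genes, of which 76 were in the tables and 55 could be tested between tumor cells and immune-like cells. In that comparison edgeR, with the tumor as a block, called 32.9% of 12139 genes, 15.7% higher and 17.2% lower in tumor cells. Of the 55 genes, 21 were higher and 5 lower, with a median log2 fold change of 0.91 against −0.04 for all genes tested. The lists were chosen with earlier results of these data known. Their counts and adjusted p-values in this comparison are thus a description and no independent support. Without TMM scaling the median of all genes shifted to 0.20, with 2458 genes called higher and 1724 lower against 1908 and 2086 in the main fit, and 23 of the 55 genes were higher and 4 lower. *Smarcb1* itself was lower (−4.27, SE 0.33), as the definition of tumor cells requires. The 6 fibroblast markers (*Col1a1*, *Col1a2*, *Col3a1*, *Dcn*, *Lum* and *Pdgfra*) moved with this comparison in sum (584.6 to 2719 CPM in tumor cells, 1.79 to 24.2 CPM in immune-like cells), and their part in it was not tested.

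Among 9 ligands, 4 were higher in tumor cells and 1 lower. *Bmp5*, *Bmp3* and *Gdf10* held 0, 3 and 6 UMIs in immune-like cells. These genes passed the filter on low counts through tumor cells and could hardly have come out lower. *Tgfb3*, a TGF-beta ligand of mesenchymal cells, stood at 232, 70.3 and 35.6 CPM in the MYC spinal tumors and 25.6, 33.8 and 199 CPM in eRT tumor cells, against at most 3.46 CPM in immune-like cells (log2 fold change 5.31, SE 0.39, adjusted p = 1.32e-05). *Gdf10*, *Bmp5* and *Bmp3* were each confined to a few tumors. *Gdf10* stood at 156, 70.3 (3 UMIs) and 139 CPM in Rosini1172, Rosini1177 and Soxertini568 and had no UMI in the other 3 tumors. *Bmp5* stood at 29.2 and 17.1 CPM in Rosini1172 and Rosini1148, the tumors high in *Bmp4*, with no UMI in the tumor cells of the other 4 or in immune-like cells. *Bmp3* stood at 20.5 and 19.3 CPM in Rosini1232 and Soxertini568. *Bmp2*, the closest relative of *Bmp4*, was not called (0.71, SE 1.29, adjusted p = 0.743). It stood at 25.5 CPM in Rosini1232 and at 0.331 CPM in Soxertini593, and had no UMI in the tumor cells of the other 4 tumors. DESeq2 did not call *Gdf10*, *Bmp5* or *Bmp3* (adjusted p = 0.190, 0.263 and 0.236). *Tgfb1*, the ligand made by most leukocytes, was lower in tumor cells (−2.57, SE 0.51, adjusted p = 2.67e-03).

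Among 9 receptors, 4 were higher and 2 lower in tumor cells, with a list median of −0.10. The BMP type I receptors *Bmpr1a* (3.90, SE 0.66) and *Acvr1* (1.83, SE 0.46), the type II receptor *Bmpr2* (1.6, SE 0.36) and the co-receptor *Tgfbr3* (3.87, SE 0.72) were higher. *Bmpr1a* stood at 32.7, 23.4 and 26.3 CPM in the MYC spinal tumors and 8.55, 17.7 and 29.1 CPM in eRT tumor cells, so it was found in each of the 6. *Acvrl1*, known from vessels, and *Tgfbr1*, the TGF-beta type I receptor, were lower (−4.15, SE 0.68, adjusted p = 7.89e-04, and −2.96, SE 0.40, adjusted p = 1.93e-04). Of 5 Smads that carry the signal, *Smad1* was higher (1.89, SE 0.33, adjusted p = 1.11e-03), at 20.6, 93.7 and 125 CPM in MYC spinal and 59.8, 51.6 and 180 CPM in eRT tumor cells, and 4 were not called.

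Of 9 secreted or decoy inhibitors, 5 were higher and none lower. *Nog* and *Chrd* held 47 and 46 UMIs in tumor cells, against 1 and 3 in immune-like cells. They passed the filter on low counts through tumor cells and could hardly have come out lower. *Fstl1*, a secreted follistatin-like protein, led with 775.5, 351.5 and 406 CPM in MYC spinal and 190 to 586.5 CPM in eRT tumor cells (7.27, SE 0.50, adjusted p = 1.32e-05). *Chrd*, which binds BMPs outside the cell, stood at 39.5 CPM in Rosini1172 and at 4.83 CPM or less in the other tumors (4.93, SE 1.12, adjusted p = 8.71e-03). *Nog*, another BMP trap, had UMIs in Rosini1172 and Rosini1232 alone, at 8.60 and 4.76 CPM (5.13, SE 1.26, adjusted p = 0.0189 by edgeR, 0.260 by DESeq2). *Nbl1* and *Fstl3* were the other members of the list that were higher. Of 8 intracellular feedback genes, *Tob1* was higher (1.17, SE 0.37, adjusted p = 0.0303), a call made in 14 of 19 alternatives, with an adjusted p of up to 0.102 when a tumor was left out.

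Of 6 BMP targets other than the *Id* genes, 3 were higher and 1 lower, with a list median of 3.23. *Msx1*, *Tbx2* and *Tbx3*, the 3 higher ones, held 2, 4 and 7 UMIs in immune-like cells. They too passed the filter on low counts through tumor cells and could hardly have come out lower. The T-box factor *Tbx2* stood at 20.6, 93.7 and 2.38 CPM in the MYC spinal tumors and 29.9, 27.4 and 3.31 CPM in eRT tumor cells (6.62, SE 0.75, adjusted p = 6.80e-05). *Tbx2* was lowest in Rosini1232 and Soxertini593. *Msx1* reached at most 7.94 CPM (4.57, adjusted p = 6.94e-03), and it was not called against all cells that are not tumor cells (adjusted p = 0.199). *Tbx3* was higher and *Gata3*, a T cell factor, lower, though *Gata3* was called in only 11 of 19 alternatives, with an adjusted p of up to 0.105 when a tumor was left out. Of 6 TGF-beta targets, *Ltbp2* (5.66, SE 0.62, adjusted p = 5.22e-05) and *Cdkn2b* (1.98, SE 0.44) were higher, and *Tgfbi*, which macrophages express strongly, was lower (−3.90, SE 0.36, adjusted p = 2.22e-05).

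Of the 3 E proteins, the partners of the Id proteins, 1 was called. *Tcf12* was higher in tumor cells (0.78, SE 0.27, adjusted p = 0.0464), a call lost in 6 of 19 alternatives, among them the fits without Rosini1172, Rosini1148, Soxertini568 or Soxertini593 (adjusted p of 0.0759, 0.0569, 0.125 and 0.123). *Tcf3* (0.25, SE 0.30, adjusted p = 0.592) and *Tcf4* (0.48, SE 0.50, adjusted p = 0.513), which also serves as a marker of plasmacytoid dendritic cells here, were not called. In tumor cells *Tcf4* stood at 91.1, 70.3 and 175 CPM in the MYC spinal tumors and 21.4, 98.3 and 54.9 CPM in eRT. Against eRT or MYC spinal, none of the 31 genes of the lists tested in tumor cells or the 40 tested in immune-like cells was called.

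**Figure D5:**
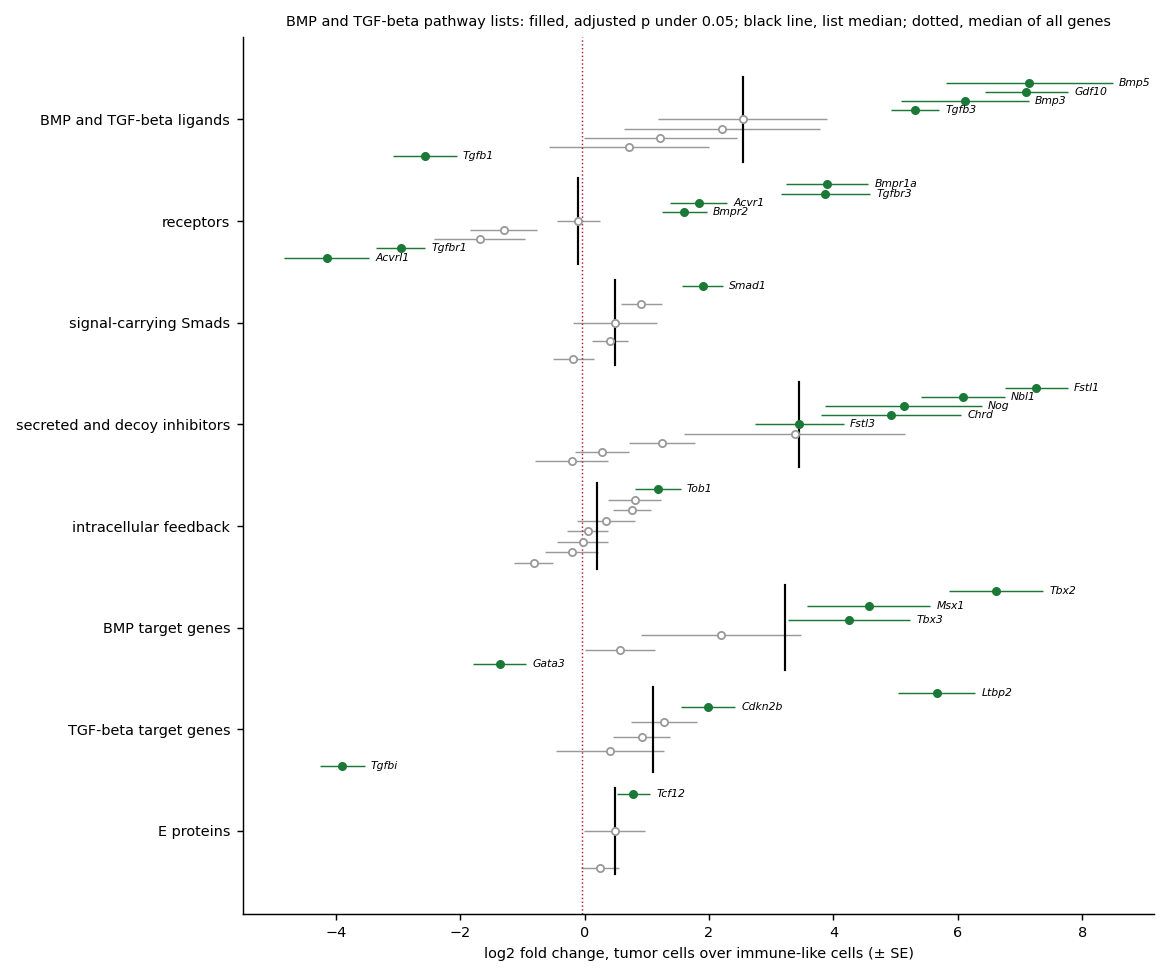
Log2 fold change of tumor over immune-like cells (± SE) for the 55 tested genes of the 8 lists, filled green where the adjusted p was under 0.05, with each list's median in black and the median of all genes (−0.04) dotted. Secreted inhibitors and BMP targets have medians of 3.45 and 3.23, and receptors lie on both sides of 0. Both of these medians include genes that passed the filter on low counts through tumor cells.

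The genes whose level across cells was most like that of each *Id* gene were sought over 59 sums of UMIs, 1 for each cell kind of each tumor, 6 of them tumor cells, among 11617 genes. Sums of a tumor share a library and its depth, so the correlations are descriptions. *Id3* was most like *Serpinh1* (Pearson's r = 0.86), a collagen chaperone, *Col1a2* (0.86), a collagen chain, and *Cyr61* (0.86). Without the tumor-cell sums r was 0.70 to 0.71, with the fibroblast-like cells of Soxertini593 still among the sums. *Id2* was most like *Junb* (0.78), *Nabp1* (0.75) and *Traf1* (0.73), with r of 0.73 to 0.80 without tumor cells. *Id1* was most like *Tcea3* (0.74), *Prom1* (0.72) and *Ddit4l* (0.70), with r of 0.62, 0.57 and 0.56 without tumor cells. *Id4* was most like *Mup20* (0.98), *Hspb8* (0.95) and *Clec2h* (0.94), but this rested on the tumor cells of Rosini1232, and without tumor-cell sums r was −0.02 to 0.21.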

How the data were processed

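Tumors were dissociated, sorted for living cells with 7-AAD and captured with the 10x 3′ chemistry. Per the labels, Cell Ranger 2.0.2 and mm10 were used. The authors deposited raw UMI counts, a table for each tumor, which are not normalized and do not scale with transcript length. Per-sample columns left unused number 0. The members and gene lists were chosen with earlier results of these data known.

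Of 22681 cells, 22163 with 200 genes or more and no more than 25% mitochondrial UMIs were kept, with 3841706 to 26184224 UMIs in a tumor. Clusters were found for each subtype in Seurat 5.3.0 (2000 variable genes without members, pathway genes and *Smarcb1*, 30 dimensions, 20 neighbors, resolution 0.8) and named when 3 or more markers passed 10% of cells and a log2 fold of 1. Tumor cells were clusters with *Smarcb1* under 0.25 of the level expected from immune-like cells, given 10 or more UMIs expected. A finer check of their subclusters, added after seeing the data, left out 328 cells of Rosini1177. Scrublet (scanpy 1.11.5) marked 20 cells (0.0902%), so it did not work, and doublets stayed in.

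Counts were summed by tumor and cell kind (10 or more cells) and tested with edgeR 4.0.16 (TMM, filterByExpr, quasi-likelihood test, two-sided, Benjamini-Hochberg at 0.05) in R 4.3.3, with the tumor as a block where both kinds of cells came from the same animal. The scripts were tested on simulated data. Intervals are exact Poisson (CPM) or Clopper-Pearson (shares) at 95%, and 1.96 SE for fold changes. A count of 0 allows up to 3 counts. Thinning to 1000 UMIs left out 3725 cells. Named were the members, the E proteins, *Smarcb1*, the 10 pathway genes with the largest called change alike in every tumor with a UMI, for each comparison and direction, and the 3 genes most like each *Id* gene by Pearson's r of log2 CPM after adding 10. *Bmp2*, *Bmpr1a*, *Acvr1*, *Bmpr2*, *Tgfbr3*, *Smad1*, *Cdkn2b*, *Nbl1*, *Fstl3*, *Tbx3*, *Gata3* and, between tumor and immune-like cells, *Tob1* were named after their values were seen. Alternatives were DESeq2 1.42.0, other cell and count filters, resolutions, *Smarcb1* limits, scaling and mitotic rules, strain as a covariate, no block, and each tumor left out.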

Additional observations from a re-analysis of the deposited data

Results flagged for a closer look

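Members were also found in cells that took part in no comparison, at levels above those in immune-like cells there. In eRT Soxertini593, a fibroblast-like cluster of 74 cells held *Id3* at 3990 CPM (3734 to 4260), *Id2* at 320 CPM, *Id1* at 138 CPM and *Bmp4* at 26.6 CPM, against 13.5, 187, 1.76 and 0.135 CPM in immune-like cells. Its *Id3* level was the highest of any kind of cell, and its *Smarcb1* level lay just above the limit for tumor cells. In MYC spinal Rosini1232, the 1201 cells with no name held *Id3* at 116.5 CPM (107 to 127) and *Id1* at 14.9 CPM, against 28.4 and 6.80 CPM in immune-like cells. Cluster 22 (107 cells) held 494 of these 549 *Id3* UMIs, at 599.5 CPM, and *Id1* at 71.6 CPM. In eRT Soxertini593, 80 cells with no name held *Id3* at 129 CPM (20 UMIs), against 13.5 CPM in immune-like cells. In MYC spinal Rosini1177, the 328 cells left out held *Smad7* at 75.7 CPM (22 UMIs), against 21.5 CPM in immune-like cells.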

How the results depend on the processing

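Of the values of counts of calls and of group levels under the alternatives, 369 moved by less than 1 SD between tumors (1.5 times for counts) and 16 by more. The SD was wide, so levels that rest on 1 tumor are among the 369. Without Rosini1148 the eRT mean of *Id1* went from 66.9 to 2.13 CPM, that of *Id2* from 156 to 35.6 CPM and that of *Bmp4* from 56.8 to 7.17 CPM, and without Rosini1172 the MYC spinal mean of *Bmp4* went from 73.9 to 0.85 CPM. The count of pathway genes called between tumor and immune-like cells was 26 and fell to 13 without the tumor block. Between subtypes in tumor cells 0 genes were called, 18 with DESeq2 and 0 to 1 with each tumor left out, in immune-like cells 14 with DESeq2, and in the interaction 3 with DESeq2 and 0 to 3 with each tumor left out. Between mitotic and other tumor cells 778 genes were called, 262 with DESeq2, 17 without the tumor block, 392 with at least 2 markers and 268 to 1228 with each tumor left out. The mean share of MYC spinal tumor cells with an *Id3* UMI was 75.4%, 53.8% without the finer check of clusters (added after seeing the data) and 53.5% at 1000 UMIs, and that of *Smad7* was 1.24% in MYC spinal and 1.83% in eRT at 1000 UMIs, against 11.6% and 10.1%. No paired analysis was possible between subtypes because the labels give no number shared by a MYC spinal tumor and an eRT. Where no tumor was a block, the calls of *Id1*, *Id2* and *Id3* in mitotic cells were lost.

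The sign of values that had not been called changed as follows, on the log2 scale. Between subtypes in tumor cells, with strain as a covariate *Id1* was at 0.97, *Id2* at 0.96, *Id3* at 0.46 and *Smad7* at −0.0389. With each tumor left out, *Id1* ran from −5.09 to 0.51, *Id2* from −2.07 to 0.19, *Id3* from −0.30 to 0.41 and *Smad7* from −0.45 to 0.66. *Id3* was at 0.0281 with every gene of at least 1 UMI, 0.0291 with a *Smarcb1* limit of 0.5 and 0.20 without the finer check. *Smad7* was at −0.24 without TMM factors, −0.0270 with DESeq2, −0.10 without the highest Scrublet scores, −0.0461 with the limit of 0.5, −0.74 without the finer check and −0.0724 without mitotic cells. In immune-like cells, with strain as a covariate *Id2* was at −0.78, *Id3* at −1.30 and *Smad7* at −1.35, and in macrophage-like clusters alone *Id3* was at −0.54 and *Smad7* at −0.63. With each tumor left out, *Id1* ran from −2.22 to 0.84, *Id2* from −0.80 to 2.06, *Id3* from −0.75 to 1.48 and *Smad7* from −0.44 to 0.79. In mitotic cells *Bmp4* was at 0.0827 with at least 2 markers and ran from −0.54 to 0.15 with each tumor left out. *Smad7* there was at −0.12 with at least 2 markers, −0.0184 without TMM factors, −0.0244 with DESeq2 and −0.0060 and −0.0017 at resolutions 0.4 and 1.6, and ran from −0.31 to 0.39. With each tumor left out, *Tcf3* ran from −0.32 to 0.0186 there, and *Tcf4* from −0.0012 to 0.80 between tumor and immune-like cells. *Gdf10*, called lower in mitotic cells, was at 0.50 with DESeq2. The cause was not tested in any of these.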
